A study of Mus musculus with 7 samples.

Results

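Gene-pair regions are stretches of open chromatin that lie close to an end of 2 or more protein-coding genes at the same time, so that a single peak stands between, or over, neighbouring genes. They come from ATAC-seq, an assay that reads accessible DNA by where a transposase can cut it, on CD15+ neural progenitors. These cells were taken at E14.5 from the dorsal telencephalon, the future cortex, of the CD-1 strain. Libraries were made from 3 wild-type samples, which the study's design text calls control, and 4 L3mbtl3 -/- (knockout) samples. The growth protocol also names heterozygous cells, but no library carries that label, and the labels do not say how the allele was made or whether embryos were pooled. Nothing in the labels says that replicates came from separate embryos, so spreads between libraries may be technical.

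The authors' 7 peak lists were merged where peaks overlapped by at least 1 bp, which gave 24734 regions on chromosomes 1 to 19. Of these, 12806 were called in 2 or more libraries and are called shared below. A shared region became a gene-pair region when it lay within 1 kb of a span end of at least 2 different protein-coding genes in the RefSeq table of GRCm38.p6, which was the case for 399. Regions were thus chosen by position and by the number of libraries with a call, and the number of calling libraries is given as a description. For comparison, 2100 shared regions lay within 1 kb of a single gene (single-gene regions) and 10307 lay farther from any gene end.

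Neighbouring genes that are transcribed away from each other from closely spaced starts share what is called a bidirectional promoter. Such promoters are usually rich in CpG dinucleotides and poor in TATA boxes, and are known for serving housekeeping genes of DNA repair, mitochondria and chaperone function. Replication-dependent histone genes are a second textbook case, since genes for H2A and H2B often stand head to head. An open region there cannot be given to one gene of the pair from its position alone.

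The sequences of 12 such intervals show what lies between the starts. The first 3 belong to the 12 highest-ranked regions that every library called. Of the 12, they are those with divergent genes whose starts in the promoter sequences left an interval of at most 250 bases, the reach of such a sequence. Ggps1/Arid4b, with spans 43 bp apart, had no such interval between those starts. Another 4 histone intervals, 1 DNA repair interval and 4 intervals with uneven calling by genotype were added after their values were seen. Each runs 5′ to 3′ on the plus strand from the base after the left gene's start to the base before the right gene's start, from RefSeq promoter sequences of GRCm38.p6. These starts can differ from the ends of the gene spans, on which distances elsewhere rest, as for Hmmr and Nudcd2, whose spans are 181 bp apart. Capitals mark letters that match 1 of 9 motifs on either strand. The motifs were the ETS motif CCGGAAG, the NRF1 core GCGCATGC, the CCAAT box, which NF-Y binds, the GC box GGGCGG, the YY1 motif AAGATGG, the cyclic AMP response element TGACGTCA, the TATA box TATAAA, and the E-boxes CAGCTG and CAGATG. Matches can overlap, as a GC box and a CCAAT box do between Hmmr and Nudcd2.
Hmmr/Nudcd2 (chr11:40733438-40733660): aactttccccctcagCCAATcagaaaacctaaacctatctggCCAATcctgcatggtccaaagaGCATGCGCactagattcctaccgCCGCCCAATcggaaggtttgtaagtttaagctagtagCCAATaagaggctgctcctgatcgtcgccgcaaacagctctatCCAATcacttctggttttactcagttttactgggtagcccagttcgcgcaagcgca
Hspa14/Cdnf (chr2:3512815-3513064): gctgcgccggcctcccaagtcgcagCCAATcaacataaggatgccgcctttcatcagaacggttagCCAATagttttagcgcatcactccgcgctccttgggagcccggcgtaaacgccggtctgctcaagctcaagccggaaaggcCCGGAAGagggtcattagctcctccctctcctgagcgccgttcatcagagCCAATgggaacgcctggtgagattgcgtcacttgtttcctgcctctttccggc
Arsk/Ttc37 (chr13:76098661-76098733): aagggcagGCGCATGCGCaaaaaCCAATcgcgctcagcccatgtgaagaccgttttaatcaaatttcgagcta
H2ac15/H2bc15 (chr13:21753913-21754075): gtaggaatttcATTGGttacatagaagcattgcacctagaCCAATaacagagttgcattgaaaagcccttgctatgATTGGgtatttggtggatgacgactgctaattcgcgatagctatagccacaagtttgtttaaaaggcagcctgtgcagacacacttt
H2ac12/H2bc12 (chr13:22035644-22035820): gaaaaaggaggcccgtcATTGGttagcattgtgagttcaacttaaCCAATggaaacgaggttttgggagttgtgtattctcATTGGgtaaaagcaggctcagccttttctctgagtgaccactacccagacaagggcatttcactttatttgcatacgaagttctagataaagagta
H2bc13/H2ac13 (chr13:21716184-21716411): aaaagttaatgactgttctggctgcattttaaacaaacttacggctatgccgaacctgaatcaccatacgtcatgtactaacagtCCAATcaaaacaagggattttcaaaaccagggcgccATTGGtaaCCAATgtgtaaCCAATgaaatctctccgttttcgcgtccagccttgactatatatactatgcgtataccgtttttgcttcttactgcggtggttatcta
H2ac8/H2bc8 (chr13:23571221-23571399): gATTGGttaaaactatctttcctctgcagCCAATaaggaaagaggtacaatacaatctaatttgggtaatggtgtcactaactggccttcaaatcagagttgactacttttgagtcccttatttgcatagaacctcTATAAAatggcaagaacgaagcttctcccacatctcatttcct
Xrcc4/Tmem167 (chr13:90089609-90089666): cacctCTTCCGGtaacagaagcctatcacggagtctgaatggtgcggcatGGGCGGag
Recql/Golt1b (chr6:142387088-142387242): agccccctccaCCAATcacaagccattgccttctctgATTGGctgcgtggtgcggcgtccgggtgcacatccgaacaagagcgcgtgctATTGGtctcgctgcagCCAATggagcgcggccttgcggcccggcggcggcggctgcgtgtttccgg
Arl16/Hgs (chr11:120467601-120467634): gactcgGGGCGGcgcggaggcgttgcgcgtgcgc
Rps6kb1/Tubd1 (chr11:86544808-86544990): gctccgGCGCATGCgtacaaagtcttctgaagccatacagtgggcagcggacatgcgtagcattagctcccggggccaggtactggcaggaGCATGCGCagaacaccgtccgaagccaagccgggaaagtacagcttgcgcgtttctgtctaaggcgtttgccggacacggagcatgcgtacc
Tepsin/Ndufaf8 (chr11:120098732-120098933): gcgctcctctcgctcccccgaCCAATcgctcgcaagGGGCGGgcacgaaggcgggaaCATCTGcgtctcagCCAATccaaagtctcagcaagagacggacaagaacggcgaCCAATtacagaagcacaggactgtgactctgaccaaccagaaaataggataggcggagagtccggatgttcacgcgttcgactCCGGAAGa

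Chromosome 18 was left out when intervals of this kind were collected. Over the 100 found on the other chromosomes, 26 to 250 bases long, a CCAAT box was in 59 and a GC box in 46. An ETS motif was in 11, CAGATG in 8, an NRF1 core in 7 and CAGCTG in 0. The printed intervals are a selection and do not stand for these shares. They held 5 CCAAT matches in the 223 bases between Hmmr and Nudcd2 and 3 in the 250 bases between Hspa14 and Cdnf. The 4 histone intervals held 2 to 4 CCAAT boxes each and no ETS, NRF1, GC box or YY1 match, and their GC content was 38.5% to 42.4%. The interval between Arsk and Ttc37 carried overlapping NRF1 matches on both strands, and that between Rps6kb1 and Tubd1 carried 2 separate ones. Proneural factors bind E-boxes, and of the 12 intervals only that between Tepsin and Ndufaf8 held a match to one of the E-boxes searched, CAGATG. A match is a string of letters, not evidence that the factor was bound.

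Most gene-pair regions lay at gene starts. The strand of both genes was known for 310 of the 399, because RefSeq promoter sequences were matched for 16456 of 20661 genes. Among those 310, 181 lay at divergent starts, 66 at starts whose genes overlap by their beginnings, and 4 at 2 starts on the same strand. Together these are 251 regions, or 81.0% (95% exact binomial interval 76.1% to 85.2%, which covers counting error only). Another 58 lay at the start of one gene and the end of its neighbour. A single region, between Mettl3, which encodes the RNA m6A methyltransferase, and Tox4 (chr14:52295755-52295872), lay at 2 gene ends and was called in wild-type library 3 and knockout library 4.

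The same orientations were counted over all gene pairs with ends within 2 kb of each other, 3046 of which had known strands. Divergent pairs were 20.6% of these and pairs of 2 gene ends 35.4%. A shared region within 1 kb of both ends was found at 184 of 626 divergent pairs (29.4%), at 66 of 350 overlapping pairs (18.9%), at 61 of 953 pairs of a start and an end (6.40%) and at 2 of 1078 pairs of 2 ends (0.186%). No test was made of these shares. Because gene ends are taken from whole gene spans, an apparent overlap can come from a single distant transcript start.

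**Figure D1:**
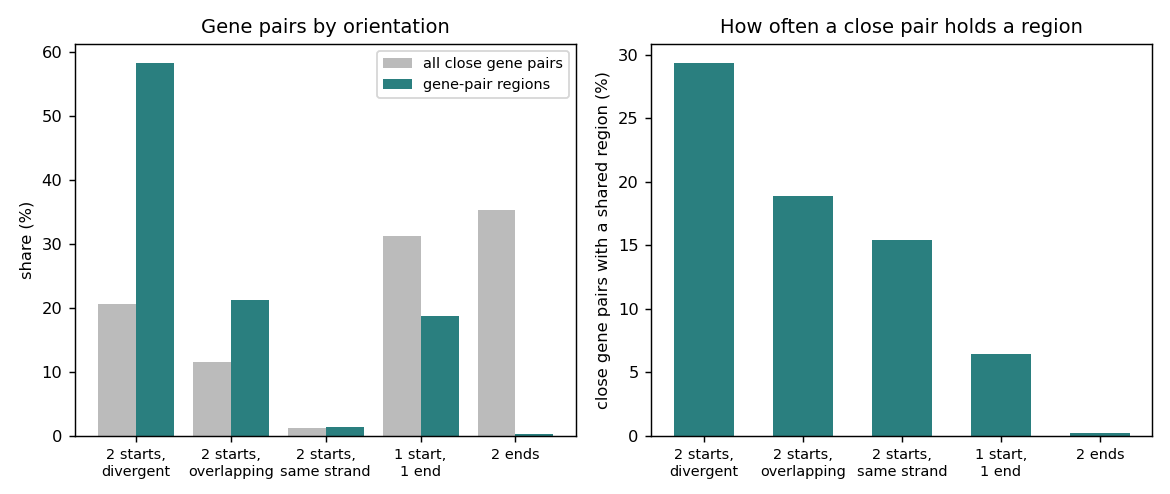
Left, share (%) of all 3046 close gene pairs with known strand (grey) and of the 310 gene-pair regions with known strand (green) in each orientation. Right, share (%) of close gene pairs of each orientation that hold a shared region within 1 kb of both ends. Divergent starts made up 20.6% of pairs and 58.4% of regions.

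At divergent starts the regions mostly lay close to the midpoint between the starts. The starts of these 181 pairs, taken as the ends of the gene spans, were 1 to 838 bp apart, with a median of 130 bp, and 151 pairs had starts under 300 bp apart. The region touched both starts in 112 cases, a single start in 47 and neither in 22, of which 10 lay between the starts. Its centre lay a median of 43.5 bp from the midpoint between the starts, and within 100 bp of it in 138 of 181. The share of divergent pairs with a shared region was 32.3% of 437 pairs at 0 to 250 bp, 41.9% of 86 at 251 to 500 bp and 16.7% of 42 at 501 to 1000 bp. It was 0 of 61 at 1001 to 2000 bp, which allows a share of up to 4.92%. At the longest spacings a region must lie near the middle to be within 1 kb of both starts, and the part of this window in the lower shares was not tested.

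**Figure D2:**
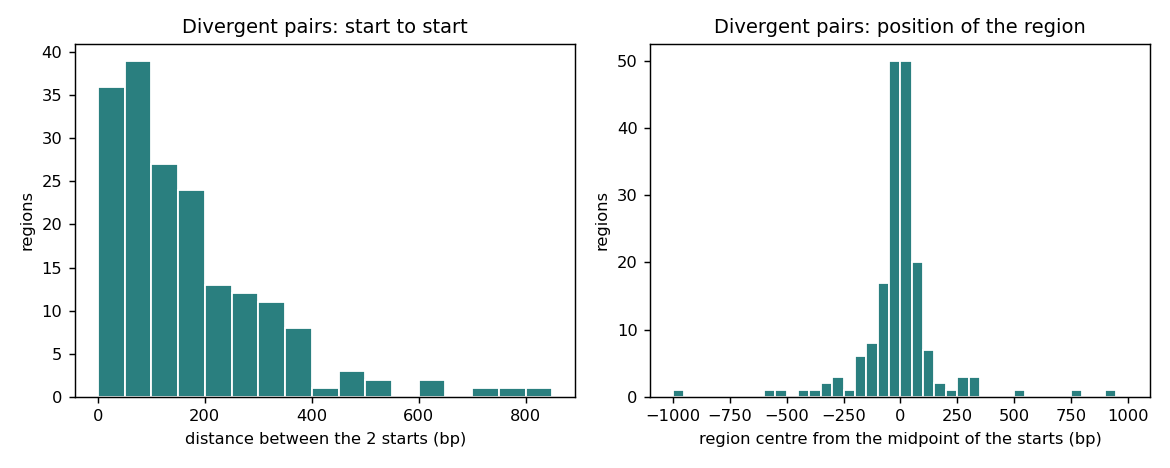
Histograms of the 181 regions at divergent starts, in bins of 50 bp. Left, distance between the 2 starts in bp, with a median of 130. Right, position of the region's centre relative to the midpoint of the starts in bp, where 138 lie within 100 bp.

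Promoter sequence was described for 614 genes whose start lay at a gene-pair region, in windows from 250 bases before to 50 after the start. The ratio of observed to expected CpG had a median of 0.826 (quartiles 0.701 and 0.937), against 0.764 for 1636 starts at single-gene regions and 0.597 for all 16456 windows. The ETS motif was found in 24.3% of the gene-pair windows, 17.5% of the single-gene windows and 12.3% of all windows. The CCAAT box was found in 60.6%, 56.5% and 39.1%, and the GC box in 62.1%, 65.5% and 47.3%. TATA boxes went the other way, in 5.37%, 6.23% and 13.5%. The E-box CAGCTG was in 10.7%, 13.7% and 15.2%, and CAGATG in 11.2%, 10.4% and 14.9%. NRF1 cores were in 5.37%, 6.05% and 3.65%, YY1 motifs in 9.77%, 7.03% and 6.40% and the cyclic AMP element in 4.23%, 4.03% and 2.40%. The windows of a close pair overlap, so 1 match can count for both genes, and these shares carry no test.

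The gene-pair regions were 94 to 953 bp long, with a median of 243 bp, the same median as single-gene regions. Of the 399, 37 were called in all 7 libraries (9.27%), 51 in 6, 48 in 5, 52 in 4, 82 in 3 and 129 in 2. All 7 libraries called 8.05% of single-gene and 10.3% of the other shared regions. Regions at divergent starts were called in a median of 4 libraries, and 20 of them in all 7. Regions at a start and an end were called in a median of 2 libraries and none of the 58 in all 7. In 386 of the 399 the peaks of all calling libraries shared at least 1 base. The 399 regions stood at 792 genes and 395 different pairs, and 4 pairs held 2 regions each, among them Kif18a/Mettl15 and Slx4ip/Mkks.

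The strongest of the regions found in every library stood between Hmmr, which encodes a spindle-associated hyaluronan receptor, and Nudcd2, a co-chaperone of the NudC family (chr11:40733464-40733679). The authors' fold enrichment of its peak was 7.33, 8.87 and 7.68 in wild-type libraries 1 to 3 and 7.66, 7.39, 8.57 and 7.14 in knockout libraries 1 to 4. On average it ranked at percentile 98.3 over the 7 lists. Folds are relative to each list's own background and are not compared between libraries.

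Next by rank came BC049715/Wbp11 (chr6:136828153-136828479, percentile 94.2), where Wbp11 encodes a splicing factor. Ccdc146/Fam185a (chr5:21424652-21424976) followed at percentile 93.0. Ggps1/Arid4b (chr13:14063343-14063707) stood at percentile 93.0 too. Ggps1 makes the lipid donor for protein prenylation and Arid4b belongs to a histone deacetylase complex, and their spans are 43 bp apart. Its folds were 6.02, 7.43 and 5.33 in wild-type and 6.89, 6.26, 6.63 and 6.73 in knockout libraries.

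The region between Pdcd10, a gene of vascular integrity, and Serpini1, which encodes the neuronal protease inhibitor neuroserpin, spanned 817 bp (chr3:75556763-75557579). Its folds were 7.11, 7.36 and 6.57 in wild-type and 7.91, 5.17, 5.55 and 6.84 in knockout libraries. Hspa14/Cdnf (chr2:3512796-3513088) pairs a ribosome-associated chaperone gene with that of a neurotrophic factor, and its folds were 5.99, 6.35 and 5.45 in wild-type and 6.56, 5.25, 5.71 and 7.50 in knockout libraries. The other regions among the first 12 were Eaf2/Golgb1, with the gene of the Golgi protein giantin, and Cnga4/Fam160a2. Etfdh/4930579G24Rik holds the gene of a mitochondrial electron transfer enzyme, and Pmel/Rab5b that of an early endosome GTPase. Arsk/Ttc37 pairs a lysosomal sulfatase with an RNA decay factor, and Med19/Tmx2 includes a Mediator subunit. Their mean percentiles ran from 84.4 to 92.3.

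Genes at these regions were sorted by symbol into 18 functional lists, which together covered 267 of the 792. Since only a gene with a close neighbour can qualify, each list is read against its genes with another gene's end within 2 kb. Of all 6863 such protein-coding genes, 11.5% stood at a gene-pair region. This background pools all orientations and was not matched to the orientations within a list. A shared region was found at 29.4% of divergent pairs but at 0.186% of pairs of 2 ends. The part of orientation in the shares of the lists was not tested. The lists rest on symbol prefixes, were not tested for enrichment, and hold some genes of other function.

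Histones had the largest share of the 18 lists, 20 of 55 (36.4%). H2ac15 and H2bc15, coding for histones H2A and H2B, shared a region that all 7 libraries called (chr13:21753818-21754122). Its folds were modest, at 4.45, 4.79 and 4.50 in wild-type and 4.67, 4.09, 4.00 and 4.95 in knockout libraries. H2ac12/H2bc12 (chr13:22035657-22035870) had calls in 2 wild-type and 3 knockout libraries, H2ac6/H2bc4 in 2 and 2, and H2bc13/H2ac13 in 2 and 1. H2ac8/H2bc8, H2bc23/H2ac23 and H2bc9/H3c7 each had 1 and 2, H2bc6/H1f4 and H2ac4/H3c2 had 1 and 1, and H3c13/H2bc18 had 0 and 2. Of the 15 histone windows at gene-pair regions, 15 held a CCAAT box and 8 a TATA box, while 57 and 35 of all 68 histone windows did. Histone genes are near-identical copies in clusters, so reads may be split between them.

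Mitochondrial genes fell into 2 lists. Of import and dynamics genes 8 of 24 (33.3%) stood at gene-pair regions, led by Timm10, a chaperone of the intermembrane space, whose region with Smtnl1 (chr2:84826798-84827043) was called in all 7 libraries. Tomm40, the import pore of the outer membrane, was called in 3 of 3 and 3 of 4 libraries, as was Tomm40l. Hspe1 and Hspd1, which encode the paired mitochondrial chaperonins, were called in knockout libraries 1 and 4 only, at folds of 4.71 and 4.10 (chr1:55087826-55088314). Of ribosome and respiratory chain genes 27 of 118 (22.9%) did so, including Mrpl32/Psma2 and Gabpa/Atp5j, each in 3 of 3 and 3 of 4 libraries. Mrpl47 and Ndufb5, a ribosomal protein and a complex I subunit, share a region with calls in 2 wild-type and 2 knockout libraries (chr3:32736735-32737082). None of the 27 was called in all 7, beside 74 of all 792 genes at gene-pair regions.

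Genome maintenance and division were frequent as well. DNA replication and repair genes stood at gene-pair regions in 18 of 74 cases (24.3%). Xrcc4, of DNA end joining, was paired with Tmem167 at a region in all 7 libraries (chr13:90089496-90089726), with folds of 6.10, 5.77 and 5.22 in wild-type and 5.53, 5.55, 4.30 and 5.85 in knockout libraries. Mcm4, a helicase subunit, and Prkdc, the DNA-dependent protein kinase, shared a region called in every library except knockout library 3 (chr16:15637317-15637928). So did Atm, the double-strand break kinase, and Npat, a regulator of histone transcription (chr9:53536621-53537011).

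Cell cycle and mitosis genes did so in 23 of 91 cases (25.3%), with Cdca2/Kctd9 in all 7 libraries and Kif18a, Cenpq and Cdc26 each in 3 of 3 and 3 of 4. Centrosome and cilium genes did so in 27 of 140 (19.3%), with Cep57, Tctn3, Ccdc146 and Ccdc163 in all 7. This list takes every Ccdc and Wdr symbol, whatever the function of the gene. RNA-related lists lay nearer the background. Splicing genes reached 16 of 107 (14.95%), with Hnrnpc and its neighbour Rpgrip1 in all 7 libraries, and tRNA and translation genes 12 of 74 (16.2%), among them Trmt1l and Sars2. Zinc-finger genes reached 16 of 111 (14.4%), including the pair Zkscan14/Zkscan5, and vesicle traffic genes 18 of 144 (12.5%), including Rab5b and Vps50.

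Lists at or under the background were ubiquitin and proteasome (16 of 166, 9.64%), cytosolic ribosomal proteins (4 of 42, 9.52%), solute carriers (11 of 123, 8.94%), chromatin genes (5 of 62, 8.06%) and the general transcription and Mediator genes (7 of 66, 10.6%). Genes with only a Tmem, Fam or Rik name stood at 36 of 302 (11.9%). Neuronal and synaptic genes had 2 of 54 (3.70%). These were Dlg2, a synaptic scaffold gene paired with Tmem126b, with calls in 2 wild-type and 3 knockout libraries, and Nlgn2, the inhibitory synapse neuroligin, called in 1 of 3 and 1 of 4. The list of homeobox, bHLH and Sox genes, which includes the proneural genes of the study's title, also takes Fox and Tbx genes. It had 1 of 42 (2.38%), the forkhead gene Foxa3 and so no homeobox, bHLH or Sox gene. The region at the divergent starts of Foxa3 and Sympk was called in 1 of 3 and 2 of 4 libraries.

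**Figure D3:**
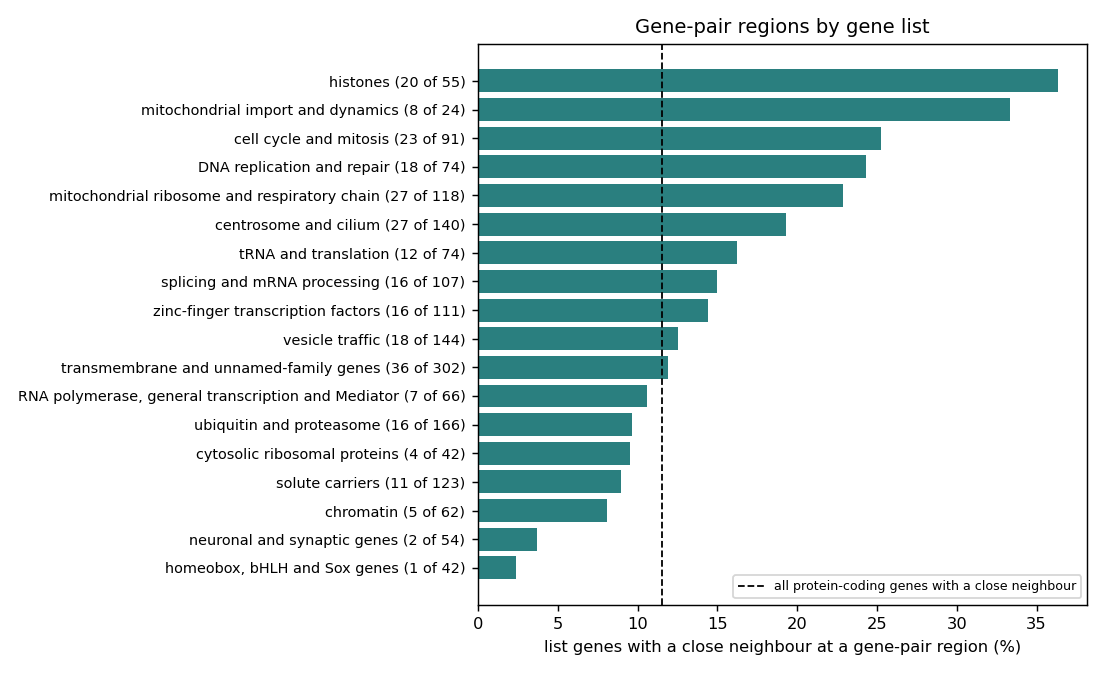
Share (%) of each list's genes with a close neighbour that stand at a gene-pair region, with the numbers beside each name. The dashed line is the 11.5% of all 6863 protein-coding genes with a close neighbour, and the bars run from 2.38% to 36.4%.

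None of 10 radial glia and cortical progenitor markers stood at a gene-pair region, beside 3.83% of all protein-coding genes. None of the 6 ventral telencephalon, 4 endothelial, 4 microglial and 4 meningeal markers did either. In the wider loci, the span and 50 kb on either side, 7 of these 10 held a shared region of any kind, and Sox2, Hes1 and Hes5 held none. Of other cell types, 1 of 6 ventral telencephalon, 0 of 4 endothelial, 2 of 4 microglial and 1 of 4 meningeal markers held one. No share over all genes stands beside these counts of wider loci.

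Calling by genotype was then compared. The lists held 3366 to 17362 peaks, and their read depth is unknown. Wild-type libraries 1 to 3 called 199, 281 and 181 of the 399 regions, and knockout libraries 1 to 4 called 226, 166, 102 and 362. The wild-type values fell inside the knockout range. The means were 220.3 ± 53.3 (SD, n = 3) and 214.0 ± 111 (SD, n = 4), a difference of −6.33 regions. It was −38.0 with the regions found without knockout library 4 and 30.7 with those found without knockout library 3, so its sign rests on single libraries. Knockout library 4, the longest list, called 110 of the 129 regions found in exactly 2 libraries. In bulk chromatin, a region open in more cells and one more open in each cell cannot be told apart.

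As a share of all shared regions a library called, gene-pair regions made up 3.07%, 3.09% and 3.46% in wild-type and 2.73%, 2.63%, 3.41% and 3.44% in knockout libraries. The means were 3.21% ± 0.220 (SD, n = 3) and 3.05% ± 0.431 (SD, n = 4), and the ranges overlapped. The peaks at gene-pair regions had a median fold percentile of 57.4 to 58.7 in wild-type libraries. It was 57.7, 52.3 and 52.1 in knockout libraries 1 to 3 and 76.7 in library 4. In knockout library 4 the single-gene regions stood at 71.1 and the other shared regions at 62.6. No p is given for these sums over regions, which were chosen with results of these data known.

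**Figure D4:**
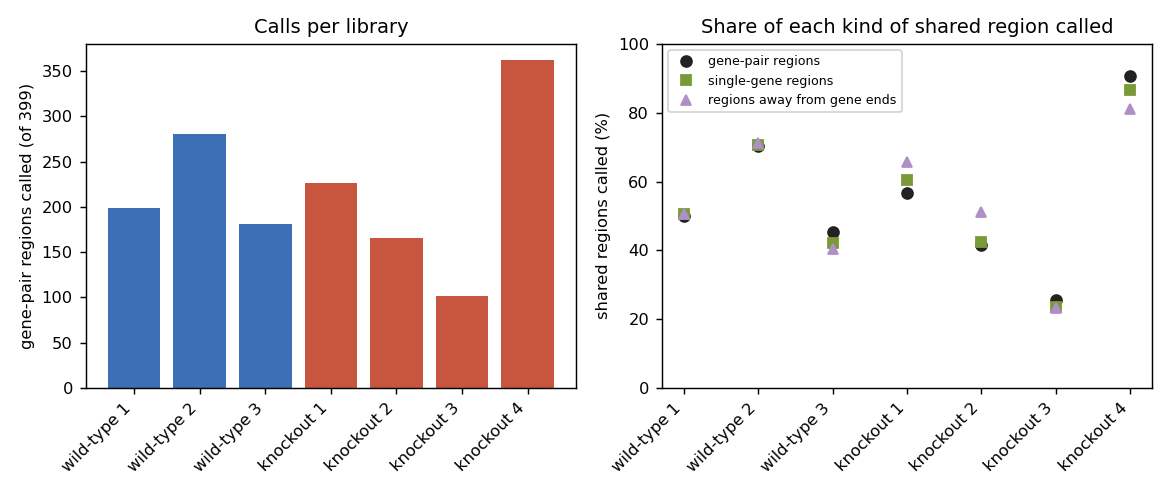
Left, number of the 399 gene-pair regions called in each of the 7 libraries (bars, wild-type blue, knockout red). Right, share (%) of gene-pair, single-gene and other shared regions called in each library; knockout library 4 called 90.7% of gene-pair regions and knockout library 3 called 25.6%.

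Region by region, 145 of the 399 had the higher calling rate in knockout, 217 had it in wild-type and 37 were called everywhere. With 3 against 4 libraries, a region called by equally many libraries of each genotype counts toward wild-type. Of that kind were 92 regions called once in each genotype, 33 called in 2 of each and 40 called in 3 of each. The mean difference between the shares was −1.59 percentage points, beside 0.705 points over all shared regions. Over the same regions without knockout library 4, the values were −14.0 and −8.42 points. Calls of that library helped to choose these regions, 110 of the 399 with only 1 other caller. Leaving it out therefore lowers the knockout shares through the choice itself, and the 2 values do not compare the genotypes. A difference of at least 50 points toward knockout was found for 38 regions (9.52%) and toward wild-type for 20 (5.01%). The background over all 12806 shared regions was 12.4% and 6.79%.

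**Figure D5:**
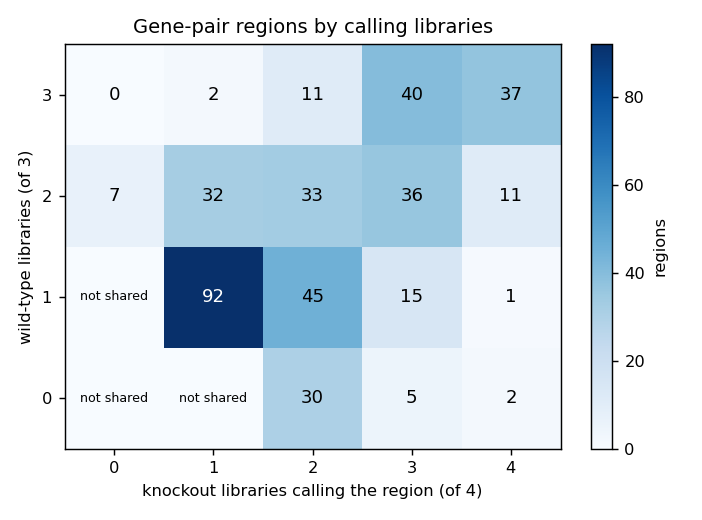
Number of gene-pair regions by how many of 4 knockout libraries (horizontal) and how many of 3 wild-type libraries (vertical) called them; darker cells hold more regions. The cell of 1 wild-type and 1 knockout library holds 92 regions and that of all libraries 37, and the corners of complete separation hold 0 and 2.

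No gene-pair region had calls from the whole wild-type group alone, which allows a share of up to 0.752%, beside 0.234% of all shared regions. Calls from the whole knockout group alone were found at 2 regions (0.501%), beside 0.211% of all shared regions, a share that rests on 2 regions. Their Fisher exact p was 0.0286, the smallest that 3 against 4 libraries allow. With Benjamini-Hochberg adjustment over the 12806 regions the adjusted p was 1, and 0 regions passed (0% of all tested), while 57 had an unadjusted p under 0.05, 2 of them gene-pair regions. This design could pass no single region. With lists cut to equal length neither direction held a separated region. The knockout count was 5 without knockout library 2, and the wild-type count was 3, 2 and 2 without wild-type library 1, 2 or 3 and 1 without knockout library 1 or 4.

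The first of the 2 separated regions lay at the divergent starts of Arl16, a small GTPase gene, and Hgs, an endosomal sorting gene (chr11:120467416-120467578). No wild-type library called it, and its folds were 5.86, 4.79, 4.13 and 5.004 in knockout libraries 1 to 4. It lay within the span of Arl16, 22 bp from the start, and outside the GC-rich interval of 34 bases printed above. The second lay at Nup214, a nuclear pore gene, and 773 bp from the neighbouring end of Aif1l (chr2:31974215-31974492). It had folds of 4.08, 4.44, 4.78 and 4.60 in knockout libraries 1 to 4 and no wild-type call. Here a start met an end, so this region is no shared promoter by position.

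Called in 3 of 4 knockout and 0 of 3 wild-type libraries were, among others, Gpd1/Cox14, Rps6kb1/Tubd1, Spata5/Nudt6 and Tepsin/Ndufaf8. Cox14 and Ndufaf8 encode assembly factors of respiratory complexes IV and I, Rps6kb1 the S6 kinase of the mTOR pathway, and Tubd1 a centriolar tubulin. Rps6kb1/Tubd1 (chr11:86544775-86544964) had folds of 4.49, 3.84 and 4.57 in knockout libraries 1, 3 and 4, and Tepsin/Ndufaf8 (chr11:120098685-120098953) had 4.31, 3.90 and 4.82 in knockout libraries 2, 3 and 4. Library 4 was among the callers of each of these 4 regions.

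Toward wild-type, Recql/Golt1b (chr6:142387079-142387222) and Ctns/Shpk (chr11:73199071-73199552) had calls in all 3 wild-type libraries and in 1 knockout library. Recql encodes a RecQ helicase and Ctns the lysosomal cystine transporter. Recql/Golt1b had folds of 4.59, 4.57 and 4.44 in wild-type and 4.49 in knockout library 4, the sole knockout caller. Ctns/Shpk had 4.11, 4.85 and 3.62 in wild-type and 4.08 in knockout library 1. Cinp/Tecpr2, Etfb/Cldnd2 and AW554918/Tpgs2 were called in 2 of 3 and 0 of 4 libraries. Tpgs2 encodes a subunit of tubulin polyglutamylase.

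By gene list, the calling rate of DNA replication and repair genes was higher in knockout in 6 and higher in wild-type in 10 of 18. For ribosome and respiratory chain genes these numbers were 9 and 18 of 27, for centrosome and cilium genes 8 and 15 of 27, for cell cycle genes 11 and 11 of 23 and for histones 10 and 8 of 20. All 4 cytosolic ribosomal protein genes had the higher rate in wild-type, with a median difference of −25 points, but none had more wild-type than knockout callers. Rps27a, Rpl15 and Rpl37 were called in 3 libraries of each genotype and Rpl36al in 1 of each. Ubiquitin and proteasome genes were higher in wild-type in 11 of 16 against 4, with a median of −12.5. Of those higher in wild-type, Usp21 and Fbxl13 had 3 wild-type and 2 knockout callers, and the others equally many of each. Chromatin genes had 3 higher in knockout and 1 in wild-type of 5, with a median of 16.7. The numbers higher in knockout and in wild-type were 4 and 3 for mitochondrial import, 3 and 3 for general transcription and Mediator, 6 and 9 for splicing, 6 and 6 for tRNA and translation, and 7 and 9 for vesicle traffic. They were 7 and 9 for zinc-finger genes, 6 and 4 for solute carriers, and 12 and 16 for Tmem, Fam and Rik genes. Neuronal genes had 1 and 1, and the homeobox, bHLH and Sox list, through Foxa3, had 1 and 0. Over all 792 genes the numbers were 289 and 432. Genes at the same region are counted separately in these numbers, so each histone pair counts with both its genes. By region the numbers were 145 and 217 of 399. The median difference was −8.33 points for the repair, respiratory and cilium lists and over all 792 genes, 0 for cell cycle genes and 4.17 for histones. A value of −8.33 is what a region called once in each genotype gives, and −25 is what calls in 3 of 3 and 3 of 4 libraries give.

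Regions near 3 genes numbered 6. Smim27, the ubiquitin ligase gene Topors and the complex I gene Ndufb6 met at chr4:40269797-40269986, called in 2 of 3 and 2 of 4 libraries, as was the region of Shld3, Trappc13 and Trim23 (chr13:104178689-104178872). The region of Rspry1 (chr8:94601626-94601918), with Psme3ip1 and LOC115486880, was called in 1 of 3 and 3 of 4, but its calling peaks had no base in common. Setdb2, a histone methyltransferase gene, Cab39l and Gm45935 met at chr14:59440881-59441059, called in knockout libraries 1 and 4. Stx5a, a Golgi syntaxin gene, met Wdr74 and 1700092M07Rik at chr19:8741289-8741740, called in 1 of 3 and 1 of 4.

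At the limits of the definition, the region of Mta2 and Tut1 (chr19:8953293-8953826) lay 6 and 993 bp from their ends and was included, called in 2 of 3 and 2 of 4 libraries. A region at H2bc3 and H3c3 (chr13:23746524-23746678) lay 56 and 1003 bp away, was called in 0 of 3 and 2 of 4, and was left out. Another 328 regions near 2 or more genes were called in a single library, 208 of them in knockout library 4.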

How the data were processed

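The authors deposited 1 broad peak list per library (3 wild-type, 4 knockout). The submitters' processing notes name the peak caller MACS2, the aligner Bowtie2 2.3.5.1, the build GRCm38, and also deepTools 3.3.0, SAMtools 1.9, FastQC 0.11.8 and CASAVA 1.9. Settings and any transposase offset: not given in the sources used here. Each deposited peak carries a fold enrichment, which is a ratio over the caller's background, a −log10 p and a −log10 q, which served only within a list. The deposited score was not used. The smallest −log10 q per list was 1.30 to 1.32. The lists hold no read counts, so depth is unknown.

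Percentiles are ranks of fold or −log10 q within a list. Gene strand came from RefSeq promoter sequences, and coordinates count from 1. Calls were compared by two-sided Fisher's exact test (scipy 1.17.1, Python 3.11.15) with Benjamini-Hochberg adjustment. Assignment and calls were tested on simulated lists, where 622 of 622 planted regions were recovered.

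Named regions were, by rule, the 12 highest-ranked called everywhere, 6 per direction with the largest genotype difference, up to 4 genes per list and up to 5 regions with 3 genes; Mrpl47/Ndufb5, Hspe1/Hspd1, Atm/Npat, Zkscan5, Mettl3/Tox4, Slx4ip/Mkks and the histone pairs beyond H2ac12/H2bc12 were named after their values were seen. Some regions that the rule names are not reported here. Members and lists were chosen with earlier results of these data known.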

Additional observations from a re-analysis of the deposited data

Results flagged for a closer look

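Chromosomes X and Y were outside the set described above, yet 16 regions there met the same definition, and the limit to chromosomes 1 to 19 alone kept them out. They are given because they are signal in data that no comparison used. All 16 lay on chromosome X. Fancb/Mospd2 (chrX:164980366-164980677), where Fancb belongs to the Fanconi anaemia repair complex, was called in all 7 libraries. Elk1/Uxt (chrX:20950612-20950759) and Trappc2/Ofd1 (chrX:166440667-166441048) had calls in 2 wild-type libraries and no knockout library. Embryo sex did not enter the count, and these calls were not tested.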

How the results depend on the processing

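The number of gene-pair regions was 59 with peaks of −log10 q of at least 5 and 173 with equal lists of 3366 peaks, both of which keep fewer peaks, and 287 to 389 without each library in turn. The share at 2 gene starts was 88.3% with a window of 500 bp, 65.1% with 2.5 kb, 86.6% for regions called in 3 or more libraries, 97.6% at −log10 q of at least 5 and 88.8% with equal lists. It was 81.0%, 82.0% and 81.9% with merging across gaps of up to 500 bp, with peaks covering at least 50% of a region and with gene starts only. The cause of these shifts was not tested. The 2 regions separated toward knockout became 1 with a window of 500 bp, 0 at −log10 q of at least 5, 0 with equal lists and 1 with 50% coverage, and 2 to 5 without each library. The 0 separated toward wild-type became 0 to 3 without each library and stayed 0 in the other settings. The difference in regions called per library ran from −38.0 to 30.7 without each library, and it was 5.33 with a window of 2.5 kb and 5.67 at −log10 q of at least 5, all within the spread between libraries (SD 92.3). With a replicate block of numbers 1 to 3, which leaves out knockout library 4, it was −55.7, over regions that calls of this library had helped to choose. Same-numbered libraries deviated together with correlations of 0.0198, 0.0227 and 0.0591. Pairs with other numbers ran from −0.0722 to 0.0734, so these values cannot tell whether the numbers pair the samples. The labels do not say so either, and the numbers were not taken as pairs. The letters in the deposited peak names match the numbers except in wild-type library 3, which shares its letter with knockout library 4, and for that pair the correlation was 0.0734. Of 84 named regions, the difference between genotypes was unchanged in 4 at −log10 q of at least 5, in 28 with equal lists and in 32 with 50% coverage. Unknown depth limits every absent call.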
